A study of Mus musculus with 13 samples.

Results

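The 6 multidrug efflux transporters Abcb1a, Abcb1b, Abcc1, Abcc3, Abcc4 and Abcg2 were examined in 4T1 mammary tumours, as 6 of the 22206 features tested on Clariom S mouse arrays. The set was proposed as a family with earlier results on these arrays in view, and its rows were chosen by gene symbol and, where a symbol had several rows, by highest mean level. Each symbol matched 1 row, so that level decided nothing, but the tests below are not independent of how the set was proposed.

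These proteins belong to the ATP-binding cassette (ABC) family, pumps of the cell membrane that use ATP to export drugs, conjugated metabolites and signalling lipids. In tumours they are known for lowering the drug content of cells and so for resistance to several unrelated drugs at a time. Mice carry a pair of genes, Abcb1a and Abcb1b, for P-glycoprotein, which humans make from a single gene. Abcc1, Abcc3 and Abcc4 encode multidrug resistance proteins of the C subfamily, and Abcg2 encodes the breast cancer resistance protein.

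RNA pooled from tumours was measured on 12 arrays, 2 for each of 6 groups. The hosts were BALB/c mice, either WT or Nlrx1-/-. Their mammary fat pad had received 1 of 3 lines: untransduced parental 4T1, a mouse mammary carcinoma line, 4T1OE, a transduced line that overexpresses the mitochondrial NOD-like receptor NLRX1, or its overexpression control line, 4T1OE-CTL. Because the deletion was in the host, tumour cells in Nlrx1-/- mice kept their own Nlrx1. The number of tumours in a pool, host age and the vector are not given in the sources used here, and each transduced line is known here only by its name, so line and effect of NLRX1 cannot be told apart. A pool was the unit of replication, and p-values measure the spread between pools, which may be technical.

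All values below are log2 expression values as deposited, and a difference of 1 is a doubling. They are compared within a gene only. Differences were fitted over 11 arrays, because the label of Nlrx1-/- parental replicate 1 advises leaving it out. That array had a median correlation with the others of 0.896, against 0.958 to 0.981 for the 11 that were fitted. This left 3 parental, 4 4T1OE-CTL and 4 4T1OE arrays, 6 from WT and 5 from Nlrx1-/- hosts, and these small numbers limit the precision. The standard deviation of all values within an array was 3.09 to 3.12 in 4T1OE, but under 3 on 3 of the 4 4T1OE-CTL arrays and 1 of the 3 parental arrays. Nlrx1 lay at 9.31 to 10.67 on the 4T1OE arrays, 5.99 to 7.06 on the 4T1OE-CTL arrays and 6.14 to 7.13 on the 4 parental arrays, which set 4T1OE apart as labelled. All 6 transporters lay above the median of the 5222 negative control features on each of the 12 arrays, Abcg2 by 1.13 to 2.59. Of 24 epithelial marker genes that a mammary carcinoma should express, 1 lay below that median on all arrays.

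**Figure D1:**
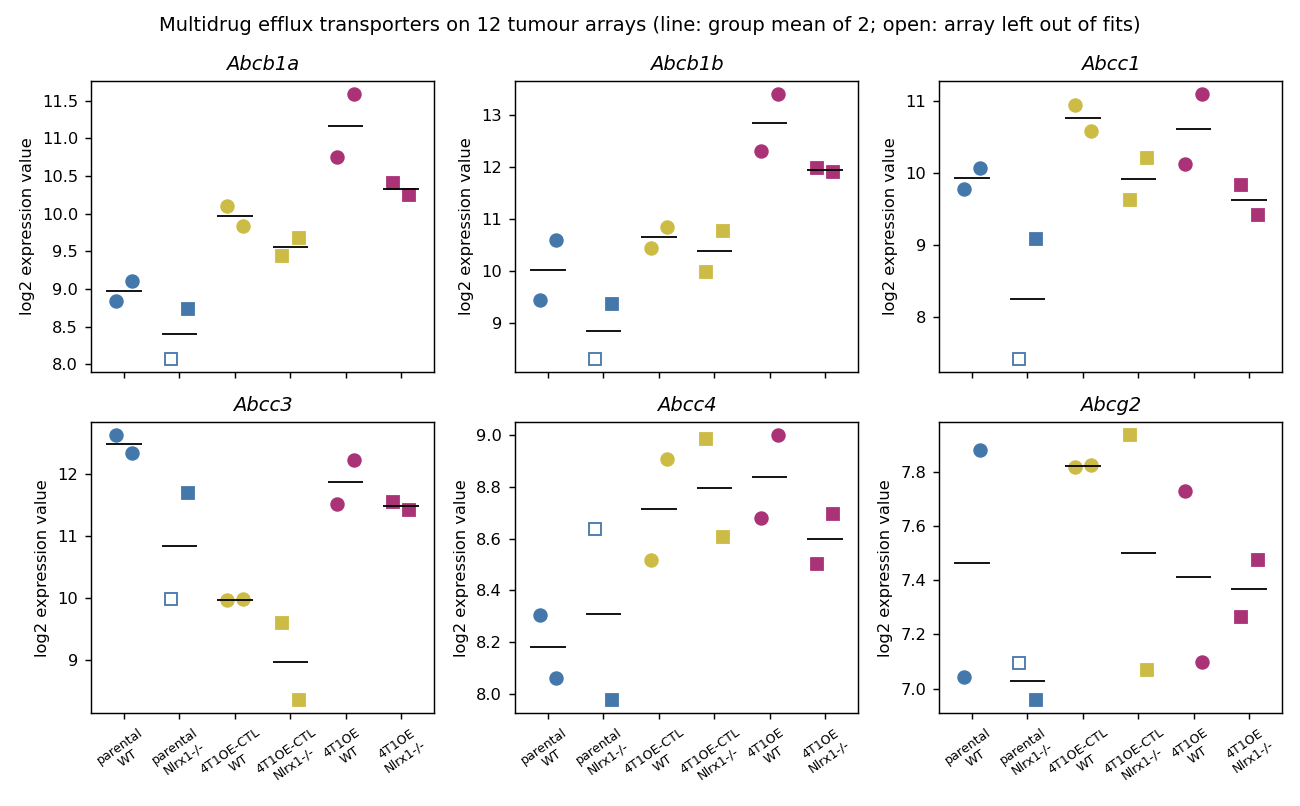
Log2 expression value (vertical axis) of the 6 transporters on the 12 tumour arrays, by cell line and host. Circles are WT hosts, squares Nlrx1-/- hosts, bars the mean of a group's 2 arrays and the open square the array left out of the fits. Abcb1a and Abcb1b were highest on the 4T1OE arrays, and Abcc3 was lowest on the 4T1OE-CTL arrays.

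The P-glycoprotein genes were highest in 4T1OE tumours. Between 4T1OE and 4T1OE-CTL, 3 of the 6 transporters passed an adjusted p of 0.05, Abcb1a, Abcb1b and Abcc3, all higher in 4T1OE, and 0 were lower. Over all features tested 4.73% passed, 3.69% higher and 1.04% lower. Between 4T1OE and parental tumours 2 of the 6 passed, Abcb1a and Abcb1b, both higher in 4T1OE, where 1.33% of all features passed, 0.887% higher and 0.441% lower. Between 4T1OE-CTL and parental tumours 1 of the 6 passed, Abcc3, which was lower in 4T1OE-CTL, where 2.59% of all features passed, 0.968% higher and 1.62% lower. These 3 comparisons share arrays, so their counts are not independent of each other. The median difference of the 6 transporters was 0.48 for 4T1OE against 4T1OE-CTL, 0.74 for 4T1OE-CTL against parental and 0.62 for 4T1OE against parental. The medians over all features were -0.05, 0.02 and -0.03. All features include dim ones. Over the 13700 genes that reached the negative control median on at least 1 fitted array, as all 6 transporters did, the medians were 0.12, -0.04 and 0.05. Of these genes 5.5%, 1.39% and 1.34% passed as higher, and 161, 329 and 92 genes passed as lower. In these whole tumours, fewer cells of a type and less RNA per cell cannot be told apart.

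**Figure D2:**
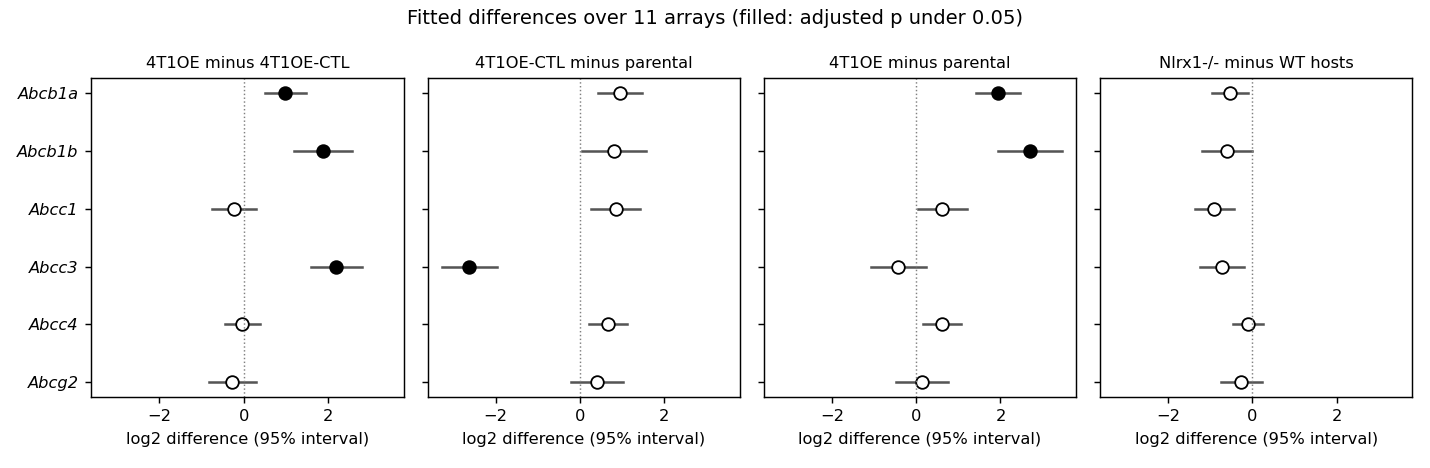
Fitted log2 difference (horizontal axis) of each transporter in 4 comparisons over 11 arrays, with 95% intervals; filled points passed an adjusted p of 0.05. Abcb1a and Abcb1b passed for 4T1OE against both other lines, Abcc3 passed as higher in 4T1OE than in 4T1OE-CTL and as lower in 4T1OE-CTL than in parental, and no point is filled for host genotype.

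The 250 bases before the transcription starts of the P-glycoprotein genes are shown because these neighbouring genes were the members that changed together against both other lines. They are RefSeq sequences of build GRCm38.p6, plus strand, with capitals marking matches to CCAAT and GGGCGG on either strand. Abcb1a is chr5:8566841-8567090 and Abcb1b is chr5:8797897-8798146.
Abcb1a: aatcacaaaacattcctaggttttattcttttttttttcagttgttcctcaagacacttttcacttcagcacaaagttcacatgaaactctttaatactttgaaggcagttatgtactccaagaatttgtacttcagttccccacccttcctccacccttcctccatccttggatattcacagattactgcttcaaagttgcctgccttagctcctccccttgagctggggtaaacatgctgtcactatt
Abcb1b: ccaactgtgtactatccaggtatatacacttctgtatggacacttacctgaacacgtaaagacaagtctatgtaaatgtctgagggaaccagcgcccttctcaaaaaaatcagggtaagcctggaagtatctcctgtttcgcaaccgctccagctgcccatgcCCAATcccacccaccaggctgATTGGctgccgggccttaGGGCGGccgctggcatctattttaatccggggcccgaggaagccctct
The Abcb1a window held 40.4% G and C and the Abcb1b window 52.8%, against a median of 52.4% over 32851 promoter windows of that length. Abcb1b held CCAAT 2 times, starting at -87 and, on the minus strand, at -66, and GGGCGG 1 time at -48, where -1 is the base before the start. Neither sequence was in the Abcb1a window. Each of the pair had 1 listed transcription start, and the bases before any other start were not searched. The windows may therefore not cover every promoter of these genes. CCAAT occurred in 33.8% of all windows and GGGCGG in 32.7%. TATAAA (12.4% of windows), CACGTG (6.02%), CACCTG (17.2%), GCGTG (28.2%) and TGACNNNGC (10.2%), also searched on both strands, were in neither of the pair. Promoter entries were matched for 4 of the 6 transporters, Abcb1a, Abcb1b, Abcc4 and Abcg2.

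Abcb1a, the P-glycoprotein of the mouse intestine and blood-brain barrier, was at 8.84 and 9.11 in parental tumours of WT hosts and at 8.73 in the fitted parental array of Nlrx1-/- hosts. In 4T1OE-CTL it was at 10.10 and 9.83 in WT hosts and at 9.44 and 9.67 in Nlrx1-/- hosts. In 4T1OE it was at 10.75 and 11.59 in WT hosts and at 10.40 and 10.25 in Nlrx1-/- hosts. The 3 lines followed the order parental, 4T1OE-CTL and 4T1OE with no overlap between neighbours, at means of 8.89 ± 0.19 (SD, n = 3), 9.76 ± 0.28 (SD, n = 4) and 10.75 ± 0.60 (SD, n = 4). The array left out, at 8.08, lay below all others. Abcb1a rose 1.98-fold from 4T1OE-CTL to 4T1OE (95% interval 1.42 to 2.77, log2 difference 0.99, SE 0.22, adjusted p = 0.0330) and 3.84-fold from parental to 4T1OE (2.67 to 5.54, log2 difference 1.94, SE 0.24, adjusted p = 0.00573). The difference of 0.96 between 4T1OE-CTL and parental (SE 0.24, adjusted p = 0.0617) did not pass.

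Abcb1b, the second P-glycoprotein gene, was at 9.43 and 10.58 in parental tumours of WT hosts and at 9.36 in Nlrx1-/- hosts. It was at 10.43 and 10.85 in 4T1OE-CTL tumours of WT hosts and at 9.98 and 10.76 in those of Nlrx1-/- hosts. In 4T1OE it reached 12.30 and 13.39 in WT hosts and 11.97 and 11.90 in Nlrx1-/- hosts. The 4 4T1OE arrays lay above all others, while parental (9.79 ± 0.69, n = 3) and 4T1OE-CTL arrays (10.50 ± 0.39, n = 4) overlapped. Abcb1b rose 3.70-fold from 4T1OE-CTL to 4T1OE (95% interval 2.29 to 5.99, log2 difference 1.89, SE 0.32, adjusted p = 0.0143) and 6.51-fold from parental to 4T1OE (log2 difference 2.70, 95% interval 1.95 to 3.46, SE 0.35, adjusted p = 0.00573). Its difference of 0.82 between 4T1OE-CTL and parental had an adjusted p of 0.276. The levels of Abcb1a and Abcb1b correlated at r = 0.948 over the 11 arrays, which share the 3 lines. The genes are close paralogues, and whether their probes pick up each other's RNA was not tested.

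The P-glycoprotein differences against parental tumours kept an adjusted p under 0.05 in all 21 alternative settings, each array left out in turn included. Those against 4T1OE-CTL did not: Abcb1a passed in 9 and Abcb1b in 15. With all 12 arrays the adjusted p against 4T1OE-CTL was 0.119 for Abcb1a and 0.0780 for Abcb1b, at differences of 0.99 and 1.89, and with the arrays' standard deviation as a covariate it was 0.485 and 0.371. Without the arrays of standard deviation under 3 it was 0.355 and 0.178. With quantile normalization Abcb1a did not pass (0.155), at a difference of 0.67. Abcb1a failed to pass without any 1 of WT 4T1OE replicate 1 (adjusted p = 0.0568) or 2 (0.0874), Nlrx1-/- 4T1OE replicate 1 (0.0966) or 2 (0.0678), WT 4T1OE-CTL replicate 1 (0.0768) and Nlrx1-/- 4T1OE-CTL replicate 1 (0.0633) or 2 (0.0619). Abcb1b failed to pass without WT 4T1OE replicate 2 (0.0547) or Nlrx1-/- 4T1OE replicate 1 (0.0544).

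Some genes beside the P-glycoprotein pair on chromosome 5 also passed as higher in 4T1OE. Gene order was taken from RefSeq, over 40 protein-coding genes to each side of Abcb1a, a window set after the values had been seen, and is a description without a test. Of these 80 genes, 51 were measured and reached the negative control median on at least 1 fitted array, a loose bar for detection. Of the 51, 12 passed as higher in 4T1OE than in 4T1OE-CTL, Abcb1b among them. This share was 23.5%, against 5.5% of all 13700 genes that met the same bar. The 51 had a median difference of 0.21, with 29 above 0, against a median of 0.12 over those 13700 genes. The 12 reached from Cdk6, a cell cycle kinase 32 genes before Abcb1a, to Dmtf1, a transcription factor gene 5 genes after it. That span was set by its outermost genes called higher. Their share inside it is raised by that choice, and the absence of such calls outside it says nothing. Of the 28 genes inside it other than Abcb1a and Abcb1b, 11 passed as higher and 0 as lower, and 23 lay above 0 (median 0.75). With the span chosen from these calls, this count is a description only. In the rest of the window 5 of 22 genes lay above 0, with a median of -0.64. There 1 gene, the guidance ligand gene Sema3c, passed as lower (-0.83).

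Among the called neighbours, Crot, a peroxisomal carnitine acyltransferase, was higher by 1.62 (adjusted p = 0.0159), Rundc3b by 1.58, Gatad1 by 1.55, and Sri, the calcium-binding protein sorcin, by 1.499 (adjusted p = 0.0217). Cdk6 was higher by 1.48 (adjusted p = 0.0124), Cdk14 by 1.47, the claudin gene Cldn12 by 1.01, Ankib1 by 0.97, Krit1 by 0.88, Fam133b by 0.78 and Dmtf1 by 0.77. They are named in view of their values. Abcb4, the phospholipid exporter gene next to Abcb1b, lay below the negative control median on all fitted arrays.

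Against parental tumours, 7 of the 51 genes around Abcb1a passed as higher in 4T1OE and 0 as lower. The 7 were 13.7%, against 1.34% of all genes that met the same bar. These 7 were Abcb1b, Cdk6 (1.68), Fam133b (0.97), Krit1 (1.22), Dbf4 (1.63), and the metalloreductase family genes Steap1 (3.00) and Steap2 (2.00). Of the 51, 29 lay above 0, with a median of 0.32 against 0.05 over the 13700 genes. From Cdk6 to Dmtf1, 23 of the 28 genes other than the pair lay above 0 (median 0.97). In the rest of the window 5 of 22 did (median -0.35). Between 4T1OE-CTL and parental, 2 of the 51 passed as higher, Steap1 (2.52) and Sema3e (2.77), or 3.92%, against 1.39%. Around the other transporters, the neighbours that passed as higher in 4T1OE than in 4T1OE-CTL were 0 of 57 around Abcc1, 0 of 49 around Abcc3, 2 of 47 around Abcc4 and 1 of 36 around Abcg2.

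**Figure D3:**
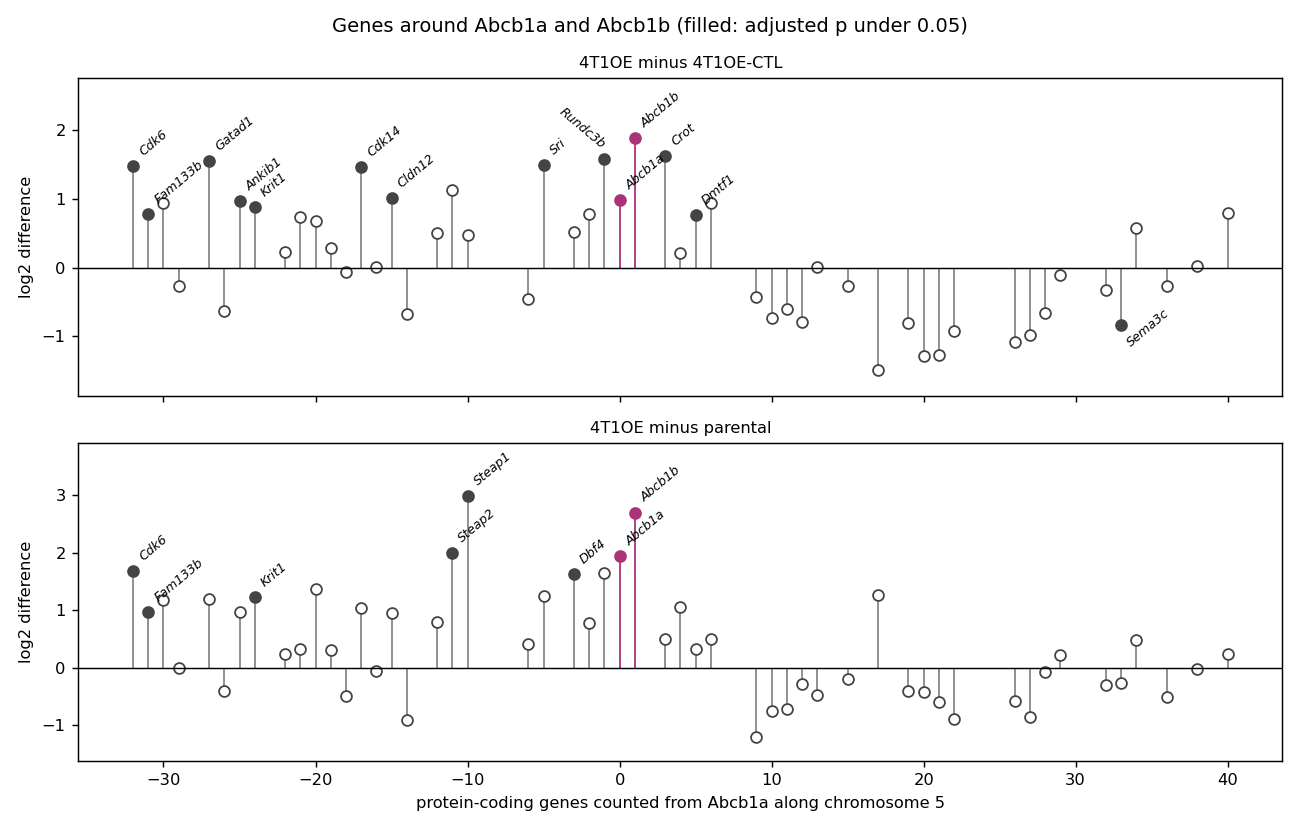
Log2 difference of 4T1OE from 4T1OE-CTL (top) and from parental tumours (bottom) for Abcb1a, at 0, and the measured genes around it. Genes are placed by their count of protein-coding genes from Abcb1a. Those below the negative control median on all fitted arrays are not shown. Filled points passed an adjusted p of 0.05 and coloured ones are the P-glycoprotein genes. In the top panel the filled points above 0 run from Cdk6 to Dmtf1.

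Abcc1 exports glutathione conjugates and leukotriene C4. Its parental arrays were at 9.77 and 10.07 in WT hosts and at 9.08 in Nlrx1-/- hosts, its 4T1OE-CTL arrays at 10.95, 10.59, 9.62 and 10.21 and its 4T1OE arrays at 10.13, 11.09, 9.83 and 9.42, WT hosts first. The 3 lines overlapped. Abcc1 did not pass in any comparison of lines, at -0.23 for 4T1OE against 4T1OE-CTL (95% interval -0.75 to 0.30), 0.85 for 4T1OE-CTL against parental (0.27 to 1.42, adjusted p = 0.126) and 0.62 for 4T1OE against parental (0.05 to 1.20, adjusted p = 0.313).

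Abcc3, an exporter of glucuronide conjugates and bile acids, had its lowest levels in 4T1OE-CTL tumours. It was at 12.62 and 12.34 in parental tumours of WT hosts and at 11.70 in Nlrx1-/- hosts. In 4T1OE-CTL it was at 9.97 and 9.99 in WT hosts and at 9.60 and 8.36 in Nlrx1-/- hosts. In 4T1OE it was at 11.52 and 12.23 in WT hosts and at 11.55 and 11.42 in Nlrx1-/- hosts. All 4 4T1OE-CTL arrays lay below all fitted arrays of the other lines, and parental and 4T1OE arrays overlapped. The array left out was at 9.99, as low as the 4T1OE-CTL arrays. From parental to 4T1OE-CTL tumours, Abcc3 fell 6.16-fold (95% interval 3.92 to 9.70, log2 difference -2.62, SE 0.30, adjusted p = 0.00129) and 4.60-fold higher in 4T1OE than in 4T1OE-CTL (3.04 to 6.98, log2 difference 2.20, SE 0.28, adjusted p = 0.00424). Its difference between 4T1OE and parental, -0.42 (-1.08 to 0.23, adjusted p = 0.579), did not pass and turned to 0.02 with all 12 arrays. The lower level in 4T1OE-CTL than in parental passed in all 21 alternative settings. The difference between 4T1OE and 4T1OE-CTL passed in 18 of 21, and not with all 12 arrays (adjusted p = 0.0664), with the arrays' standard deviation as a covariate (0.203) or without the arrays of standard deviation under 3 (0.133).

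Epithelial marker genes also differed between the lines. Between 4T1OE-CTL and parental, 15 of the 24 passed as lower and 0 as higher, with a median difference of -1.81, among them the adhesion genes Epcam (-5.84) and Cdh1 (-2.97). Between 4T1OE and parental, 8 of 24 passed as lower (median -1.23), while between 4T1OE and 4T1OE-CTL 1 passed, Spint1, as higher (median 0.32 against -0.05 over all features), and 7 were higher and 1 lower at an unadjusted p under 0.05. Within Nlrx1-/- hosts, 4 of the 24 passed as higher in 4T1OE and 0 as lower, 14 were higher and 1 lower at an unadjusted p under 0.05, and the median difference was 0.90. Within WT hosts 0 passed, 1 was higher and 3 lower at that unadjusted p, and the median was 0.07. The median deviation of the list from its genes' medians was 0.94 to 1.95 on parental, -1.05 to 0.18 on 4T1OE-CTL and -0.16 to 0.03 on 4T1OE arrays. Its summed level on the log2 scale was 17.27 to 17.86, 14.67 to 16.76 and 16.34 to 16.90. On the array left out the deviation was 0.18. The part of epithelial content in the Abcc3 differences was not tested.

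**Figure D4:**
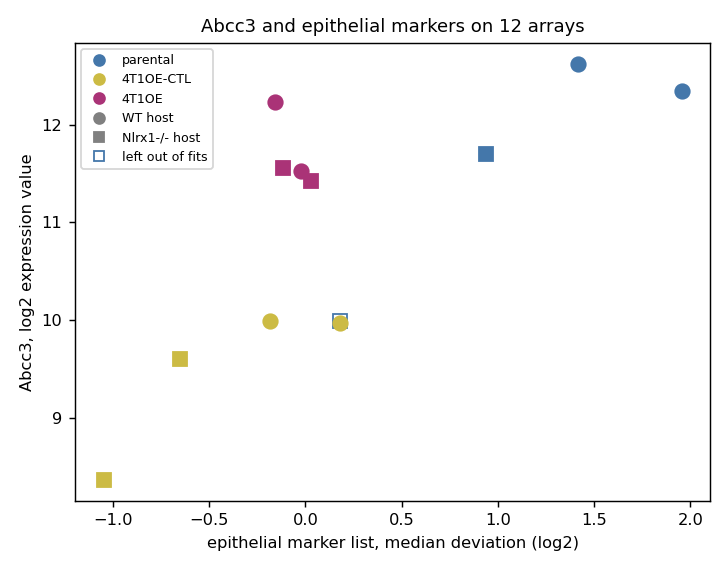
Log2 expression value of Abcc3 (vertical axis) against the median deviation of 24 epithelial marker genes (horizontal axis, log2) on the 12 arrays; circles are WT hosts, squares Nlrx1-/- hosts and the open square the array left out. The 4 4T1OE arrays, at -0.16 to 0.03 on the horizontal axis, lie above the 4T1OE-CTL arrays, 2 of which lie beside them on that axis.

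Abcc4, an exporter of cyclic nucleotides and prostaglandins, was at 8.31 and 8.06 in parental tumours of WT hosts and at 7.98 in Nlrx1-/- hosts. It was at 8.52, 8.91, 8.99 and 8.60 in 4T1OE-CTL and at 8.68, 8.999, 8.50 and 8.69 in 4T1OE, WT hosts first. All 8 arrays of the transduced lines lay above the 3 fitted parental arrays, and the array left out, at 8.64, did not share the parental level. The differences from parental, 0.66 in 4T1OE-CTL (95% interval 0.21 to 1.11, adjusted p = 0.131) and 0.62 in 4T1OE (0.17 to 1.07, adjusted p = 0.189), did not pass. The transduced lines differed by -0.04 (-0.45 to 0.38, adjusted p = 0.925).

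Abcg2, which works as a dimer and marks side population cells by their dye export, was at 7.04 and 7.88 in parental tumours of WT hosts and at 6.96 in Nlrx1-/- hosts. It was at 7.82, 7.82, 7.93 and 7.07 in 4T1OE-CTL and at 7.73, 7.10, 7.26 and 7.47 in 4T1OE, WT hosts first. The lines overlapped, and no comparison of lines passed. The 95% intervals of the log2 differences were -0.83 to 0.29 for 4T1OE against 4T1OE-CTL, -0.20 to 1.02 for 4T1OE-CTL against parental and -0.47 to 0.75 for 4T1OE against parental.

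The groups of arrays did not overlap for 3 transporters in each comparison of lines. These were Abcb1a, Abcb1b and Abcc3 for 4T1OE against 4T1OE-CTL (16.5% of all features), Abcb1a, Abcc3 and Abcc4 for 4T1OE-CTL against parental (11.3%), and Abcb1a, Abcb1b and Abcc4 for 4T1OE against parental (17.8%).

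No transporter passed between hosts. Between Nlrx1-/- and WT hosts over all lines, 0 of the 6 transporters and 0% of all features passed in limma. All 6 fitted differences were below 0, as were 49.3% of all features, with a median of -0.57 against 0.00 over all features. In the same comparison B and plasma cell markers had a median difference of 1.63. Of 10, 6 were higher at an unadjusted p under 0.05. Among fitted arrays they were high on Nlrx1-/- 4T1OE-CTL replicate 1 and Nlrx1-/- 4T1OE replicate 1, at median deviations of 4.61 and 3.51. The other fitted Nlrx1-/- arrays lay at -0.13 to 0.25, and the WT arrays at -0.24 to 0.09. Epithelial markers had a median difference of -0.35, with 6 of 24 lower at an unadjusted p under 0.05. Lymph node stroma genes had a median difference of 1.17, T and NK cell markers 0.51, neutrophil markers -0.38 and skeletal muscle markers -0.61. In each of these lists 0 passed, and their part in the host differences was not tested. The unadjusted p was under 0.05 for 4 of the 6 transporters, against 2.68% of features lower and 1.62% higher at that threshold. Abcc1 had the largest difference, -0.90 (95% interval -1.36 to -0.44, unadjusted p = 0.00104, adjusted p = 1.00), at 10.43 ± 0.53 (SD, n = 6) in WT and 9.63 ± 0.42 (SD, n = 5) in Nlrx1-/- hosts. The others were -0.72 for Abcc3 (-1.24 to -0.20), -0.61 for Abcb1b (-1.21 to -0.004), -0.53 for Abcb1a (-0.95 to -0.11), -0.26 for Abcg2 (-0.75 to 0.23) and -0.11 for Abcc4 (-0.47 to 0.25). The arrays of the 2 hosts overlapped for each of the 6, as for all but 0.207% of features. All 6 differences stayed below 0 in each of the 20 alternative settings of this comparison. Within parental, 4T1OE-CTL and 4T1OE tumours alone, 0 of the 6 transporters and 0% of features passed. At an unadjusted p under 0.05, 0, 2 and 2 of the 6 were lower in Nlrx1-/- hosts, against 2.43%, 6.29% and 0.549% of features.

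Within WT hosts, 0 of the 6 transporters passed for 4T1OE against 4T1OE-CTL in limma, where 0.0135% of all features passed, and 3 had an unadjusted p under 0.05 and were higher, against 4.97% of features. Within Nlrx1-/- hosts Abcc3 passed (2.50, SE 0.40, adjusted p = 0.0314), where 1.19% of all features passed. In Nlrx1-/- hosts 4 of the 24 epithelial markers also passed as higher, and their part in this result was not tested. In WT hosts the difference of Abcc3 was 1.90 (SE 0.40, adjusted p = 0.194). Abcb1b differed by 2.21 in WT and 1.57 in Nlrx1-/- hosts, and Abcb1a by 1.20 and 0.77. The test of the difference between hosts passed for 0 of the 6 transporters and 0% of features (adjusted p = 0.999 for each of the 6, none with an unadjusted p under 0.05). Abcc3 in Nlrx1-/- hosts passed in 9 of 20 alternative settings, with limma adjusted p-values up to 0.542. The call was lost with the replicate number as a block (adjusted p = 0.0550), with quantile normalization (0.0579) and with all 12 arrays (0.396). Further losses came with the standard deviation covariate, with the compared groups alone and without the arrays high in lymph node genes, described below. It was also lost without WT 4T1OE replicate 1 or 2 (0.0696 for each), Nlrx1-/- 4T1OE replicate 1 (0.281) or 2 (0.184), or Nlrx1-/- 4T1OE-CTL replicate 2 (0.0955).

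Other exporters and the proteins that act with them were described from lists. Their counts for 4T1OE against 4T1OE-CTL are to be read beside shares of 3.69% higher and 1.04% lower across the 22206 features. Among the 13700 genes that reached the negative control median on at least 1 fitted array, 5.5% were called higher. Whether a list exceeded these shares was not tested. Of 12 other ABC genes linked to drug export, 6 lay below the negative control median on all arrays. Abca3, a lipid transporter of lamellar bodies, was the 1 of 12 that passed between 4T1OE and 4T1OE-CTL, higher by 1.497 (adjusted p = 0.0154). From parental to 4T1OE-CTL it fell (-1.36, adjusted p = 0.0297), as did the mitochondrial transporter gene Abcb8 (-1.31). The list's median differences were -0.13 and 0.18, against -0.05 and 0.02 over all features and 0.12 and -0.04 over the 13700 genes.

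Of 33 measured ABC genes of lipid, peptide and other transport, 4 passed as higher in 4T1OE than in 4T1OE-CTL and 0 as lower. They were Abca9 (1.94), Abcf1, a translation factor (1.33), Abcc9, a subunit of potassium channels (1.07), and Abcd3, a peroxisomal fatty acid transporter (0.92). Between 4T1OE-CTL and parental, the peptide transporter Tap1 was higher (1.99) and Abcd3 lower (-1.10).

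Conjugating enzymes make many of the substrates that Abcc1 and Abcc3 export. Of 27 measured, 3 passed as higher in 4T1OE than in 4T1OE-CTL and 1 as lower. The glutathione transferases Gsta2 (2.04), Gsta4 (1.72) and Gstp1 (1.52) were higher, and the microsomal transferase Mgst1 was lower (-2.75, adjusted p = 0.000401). Mgst1 was also lower in 4T1OE than in parental (-1.83), and Gsto1 fell from parental to 4T1OE-CTL (-1.35).

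Of 26 measured drug uptake carriers, 2 passed as higher in 4T1OE than in 4T1OE-CTL, the nucleoside transporters Slc29a1 (2.35, adjusted p = 0.00424) and Slc29a3 (1.24), and 0 as lower. Slc29a1, through which nucleoside drugs enter cells, fell from parental to 4T1OE-CTL, as Abcc3 did (-1.94, adjusted p = 0.00653). Of 12 membrane anchoring and trafficking partners, 2 passed as higher in 4T1OE than in 4T1OE-CTL, Ezr, which encodes the actin linker ezrin (1.60), and Rab5a (0.75), and the list's median difference was 0.75.

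Among 24 measured transcriptional regulators of these transporters, the nuclear receptor partner Rxra (0.75) and Arnt, the partner of the aryl hydrocarbon receptor and of hypoxia-inducible factors (1.20), passed as higher in 4T1OE than in 4T1OE-CTL, and 0 passed as lower. The glucocorticoid receptor gene Nr3c1 was higher in 4T1OE than in parental (1.49). Abcc1 and Abcc4 export eicosanoids. Of 15 measured genes of eicosanoid synthesis and eicosanoid receptors, the prostaglandin E synthase Ptges was the 1 that passed. It was higher in 4T1OE than in parental (2.14, adjusted p = 0.00626). Of 9 side population and stem cell genes, the integrin gene Itga6 passed as higher in 4T1OE than in 4T1OE-CTL (1.84). In the comparison of hosts, 0 genes of these 8 lists passed.

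Other cell types differed between the same lines. Macrophage markers were higher in 4T1OE than in 4T1OE-CTL, 7 of 18 measured, with a median difference of 1.29. Their median deviation was 0.20 to 0.69 on 4T1OE, -1.92 to -0.23 on 4T1OE-CTL and -1.02 to 0.25 on parental arrays, and their summed log2 level 19.40 to 20.24, 17.03 to 19.39 and 18.99 to 20.07. None of the 18 lay below the negative controls on all arrays. Of 19 endothelial markers, 4 were higher in 4T1OE than in 4T1OE-CTL (median 0.71), at summed levels of 13.93 to 14.50 and 12.61 to 13.78, and 1 lay below the negative controls on all arrays. The endothelial cadherin gene Cdh5 fell from parental to 4T1OE-CTL (-2.10). Of 12 pericyte and smooth muscle markers, 2 were higher in 4T1OE than in its control line, Rgs5 (1.96) and Abcc9 (1.07). Abcc9 is the gene already counted among other ABC genes. From parental to 4T1OE-CTL 2 fell, Rgs5 (-2.14) and Acta2 (-1.82), so of these Rgs5 alone passed in both directions of Abcc3. Tagln was lower in 4T1OE than in parental (-1.37). The summed log2 level of the 12 was 13.21 to 13.31 on parental, 11.85 to 12.38 on 4T1OE-CTL and 11.99 to 13.24 on 4T1OE arrays. Mast cell markers had a median difference of 1.55 between 4T1OE-CTL and parental (1 of 12 passed as higher) and -0.64 between 4T1OE and its control line (2 passed as lower). Skeletal muscle markers had a median difference of 1.59 between 4T1OE-CTL and parental (1 of 22 passed as higher), with deviations of 3.16 on WT 4T1OE replicate 1, 2.16 on Nlrx1-/- 4T1OE-CTL replicate 2 and 1.84 on WT 4T1OE-CTL replicate 1, against -0.65 to 0.85 on the other 8 fitted arrays. Of 18 T and NK cell markers, 2 passed as lower in 4T1OE than in its control line, and 3 were higher in 4T1OE-CTL than in the parental line. Of 14 fibroblast markers, 5 were lower in 4T1OE than in parental tumours (median -0.97) and 2 were lower in 4T1OE-CTL than in parental (median -0.46). Lymph node stroma genes were high on Nlrx1-/- 4T1OE replicate 1 and Nlrx1-/- 4T1OE-CTL replicate 1, with deviations of 2.89 and 3.03, against -0.32 to 0.41 on the other 9 fitted arrays and 2.85 on the array left out. Without these 2 arrays, Abcb1a and Abcb1b no longer passed between 4T1OE and 4T1OE-CTL (adjusted p = 0.134 and 0.0822), and Abcc3 did. The part of these cell types in the transporter differences was not tested.

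The features whose levels followed each transporter most closely over the 11 arrays were named by Pearson's r, as a description, since the arrays share lines, hosts and differences in spread. For Abcb1a these were Scin (r = 0.972), Ptges (0.963), Abcb1b (0.948), Azin1 (0.935) and Gphn (0.916). For Abcb1b they were Cnot10 (0.958), Cdk6 (0.955), P2ry6 (0.949), Abcb1a (0.948) and Krit1 (0.936), of which Cdk6, Krit1 and Abcb1a are its neighbours. For Abcc3 they were Eif2a (0.973), Zdhhc1 (0.972), Chrnb1 (0.969), Fam160a1 (0.960) and Dnajc7 (0.956). For Abcc1 they were Tnfaip3 (0.924), Mmp13 (0.888), Rsl1d1 (0.883), Ccn1 (0.861) and Steap4 (0.854). Abcc4 was closest to Wdr90 (0.944), Snrpa (0.939), Card10 (0.902), Hpse (0.881) and Rbmx (0.864). Abcg2 was closest to 1700071K01Rik (0.902), Tceanc2 (0.886), Atxn7 (0.871), Itgb3bp (0.842) and Tfdp1 (0.839). Among the 6 transporters the pair Abcb1a and Abcb1b had the highest correlation, and the other 14 pairs ran from -0.41 to 0.67.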

How the data were processed

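RNA from 12 tumour pools was measured on Clariom S arrays. Per feature and array, the authors deposited a log2 value. The submitters' processing notes name the Transcriptome Analysis Console, without its role. The normalization method and genome build are not given in the sources used here. Array medians ran from 5.89 to 6.25. Of 28846 features, 6640 controls were removed and 22206 tested as deposited. The manufacturer's control array held 0 values.

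The test was limma's moderated one (version 3.58.1, R 4.3.3), two-sided. Its p-values were adjusted by the method of Benjamini and Hochberg across the 22206 features, and 0.05 was the threshold. An additive model of line and host gave the comparisons over lines or hosts, and a model of group means the 5 comparisons within a host or line and 1 interaction. The members and gene lists were chosen with earlier results of these data known, so their p-values are not independent evidence. Named genes were the 6 members, list genes that passed (at most 6 per list and comparison), the 5 features most like each member, and Nlrx1. Genes near members were chosen after their values were seen.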

Additional observations from a re-analysis of the deposited data

Results flagged for a closer look

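In 3 of 18 sets of 4 arrays of a line, the left-out array included, 1 array lay far from the others by Dixon's ratio of its gap to the whole range, which flags about 1 set in 20 by chance. Abcc3 on WT 4T1OE replicate 2, at 12.23, lay above the other 4T1OE arrays (ratio 0.839). Abcg2 on WT parental replicate 2, at 7.88, lay above the other parental arrays (ratio 0.852). Abcg2 on Nlrx1-/- 4T1OE-CTL replicate 2, at 7.07, lay below the other 4T1OE-CTL arrays (ratio 0.863).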

How the results depend on the processing

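Of the transporters, 3 passed between 4T1OE and 4T1OE-CTL. This fell to 0 with all 12 arrays, the arrays' standard deviation as a covariate and without arrays of standard deviation under 3, 2 with quantile normalization (Abcb1a lost), 1 without the arrays high in lymph node genes (chosen after seeing the data), and 1 to 3 with each array left out. Between 4T1OE-CTL and parental the count of 1 became 2 (Abcb1a and Abcc3) with quantile normalization and without WT 4T1OE replicate 2 (0.0409 for Abcb1a), a range of 1 to 2 over left-out arrays. Between 4T1OE and 4T1OE-CTL in Nlrx1-/- hosts the count of 1 became 0 with all 12 arrays, quantile normalization, the replicate block, the standard deviation covariate, the compared groups alone and without the arrays high in lymph node genes, and 0 to 1 over left-out arrays. The count of 2 between 4T1OE and parental and the counts of 0 in the other comparisons did not move in the settings run. Signs turned for transporters that had not passed: Abcc1 between 4T1OE and 4T1OE-CTL (0.023 without arrays of standard deviation under 3), Abcc4 in that comparison (0.11 without the arrays high in lymph node genes, -0.15 to 0.074 over left-out arrays), Abcc3 between 4T1OE and parental (0.016 with all 12 arrays) and Abcg2 there (-0.092 with the covariate, -0.030 without arrays of standard deviation under 3, -0.030 to 0.39 over left-out arrays). The causes were not tested. Over all settings the features that passed ran from 4 to 2663 between 4T1OE and 4T1OE-CTL (1051 as reported), 126 to 880 between 4T1OE-CTL and parental (575), 83 to 666 between 4T1OE and parental (295), 0 to 31 for the transduced lines in WT hosts (3) and 0 to 1341 in Nlrx1-/- hosts (265). Over all features, the differences between replicates 1 and 2 correlated above 0.1 in 2 of 10 pairs of groups (r from -0.31 to 0.37). This covered the 5 groups with 2 fitted arrays. Lymph node genes were high on replicate 1 of each Nlrx1-/- group, the left-out array included (deviations 2.85, 2.89 and 3.03). On replicate 2 of these groups they were at 0, -0.32 and 0.41. The correlations therefore cannot decide whether the numbers pair arrays. Choosing another row per gene could not be run because each transporter had 1, and the fits that would leave a group empty, such as Nlrx1-/- parental replicate 2 left out of the parental comparison, were not run.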
